A study of Mus musculus with 12 samples.

Results

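The 52 genes described here act in mitosis: they encode the kinases and cyclins that start it, the spindle checkpoint, kinetochores, spindle motors, the condensation of chromosomes and cytokinesis. They were listed by symbol and looked up among the probe sets that the supplied probe table pairs with a single gene symbol. The array represented 51 of the 52 in this way, of 18194 genes so represented in all, and Ccnb1 was not analysed here. Where several probe sets matched a gene, the brightest on average over the arrays was used. All 51 passed the level filter that left 10583 genes for testing. Of the probe sets used, 12 carry the suffix x_at or s_at, with which the manufacturer marks probes that may also bind transcripts of other genes, and their values are less certain.

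The study used 12 one-colour Affymetrix arrays, hybridised with RNA from blood cells of mice. Controls have the Stat5a and Stat5b genes and knockouts lack both in blood cells; these genes encode transcription factors that carry cytokine signals. Each genotype has 3 arrays with a minus and 3 arrays with a plus in the title, which gives the groups control minus, control plus, knockout minus and knockout plus. Per the treatment protocols, plus stands for cells given CMP and minus for cells without it, but in 2 of the 3 forms of title the letters CMP stand on plus and minus arrays alike, so that they may also name the cells. The plus effect below is therefore only the difference between arrays with each sign. The labels name no strain, age, dose or time, nor what drives the deletion of Stat5a and Stat5b, and do not say whether the arrays of a group came from separate animals or cultures, so that p-values measure the spread between these samples, which may be technical.

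The titles come in 3 forms, here named A, B and C, and every form holds 1 array per group. The treatment protocol of the knockout minus array of form B calls it a control; it is grouped by its title. Signals of Stat5a and Stat5b were 660 to 1436 and 1036 to 2177 in the controls, and 28.9 to 90.1 and 7.28 to 82.8 in the knockouts, where that array gave 50.1 and 32.3. The arrays of form B stood apart by the log2 ratio of the 3' to the 5' probe set of beta-actin. This ratio rises when RNA is degraded or copied short, and was 4.30 to 5.78 in them and 0.25 to 2.14 in the 8 others. For Gapdh it was 4.72 to 6.09 in form B and 1.10 to 4.56 in the 8 others. Of these, the form A plus arrays were the highest, at 4.56 (control) and 3.89 (knockout), against 2.39 and 1.58 in their minus partners. In form B the source label of the knockout plus array opens with another number than those of its 3 partners. The blood cell markers Ptprc, Spi1, Runx1, Coro1a and Laptm5 and the 6 progenitor markers (among them Kit and Cd34) were above the level filter, while B cell markers (1 of 4 on the array above it) and T and NK cell markers (2 of 5) were mostly below it.

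In a dividing cell these genes are switched on in waves. Cyclin-dependent kinase 1 with its cyclins drives entry into mitosis, the kinases of the Plk and Aurora families build the spindle, and the checkpoint holds chromosomes until the anaphase-promoting complex releases them. Blood progenitors divide often, so their RNA is usually rich in such transcripts. Many mitosis promoters hold a cell cycle homology region, with the letters TTTGAA, through which the DREAM complex keeps them silent in resting cells, and CCAAT boxes bound by the activator NF-Y.

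The promoters of some members are shown first. RefSeq promoters (assembly GRCm38.p6, 250 bases before to 50 after the start) were found for 43 of the 52 members, 46 promoters in all. The 6 printed here belong to the members with the smallest p in the plus effect of the controls among those called lower that hold TTTGAA within 100 bases before the start. Each line gives those 100 bases in the direction of the gene, 5′ to 3′, and capitals mark TTTGAA or its reverse complement TTCAAA, and CCAAT or its reverse complement ATTGG.
Cdk1: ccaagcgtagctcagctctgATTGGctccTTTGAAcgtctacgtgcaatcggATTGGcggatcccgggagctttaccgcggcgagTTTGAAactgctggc
Ube2c: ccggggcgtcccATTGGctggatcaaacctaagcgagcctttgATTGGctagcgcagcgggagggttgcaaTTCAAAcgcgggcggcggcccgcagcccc
Prc1: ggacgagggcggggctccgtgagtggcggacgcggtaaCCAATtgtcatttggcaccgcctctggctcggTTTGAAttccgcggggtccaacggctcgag
Cdc20: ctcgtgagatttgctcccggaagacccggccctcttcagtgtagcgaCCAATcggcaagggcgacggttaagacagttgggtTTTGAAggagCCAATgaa
Espl1: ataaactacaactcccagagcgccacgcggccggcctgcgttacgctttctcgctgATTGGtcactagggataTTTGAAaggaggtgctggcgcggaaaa
Top2a: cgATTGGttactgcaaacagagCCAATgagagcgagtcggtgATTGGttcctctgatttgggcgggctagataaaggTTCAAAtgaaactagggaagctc

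They lie at chr10:69352913-69353012 (Cdk1, minus strand), chr2:164769829-164769928 (Ube2c, plus strand), chr7:80294376-80294475 (Prc1, plus strand), chr4:118437344-118437443 (Cdc20, minus strand), chr15:102296193-102296292 (Espl1, plus strand) and chr11:99024190-99024289 (Top2a, minus strand). In each, the TTTGAA letters nearest the start begin 15 to 30 bases before it, and at least 1 CCAAT lies further upstream. The printed promoters were chosen for TTTGAA within the 100 bases before the start, which most members lack. There it was in 12 of the 46 member promoters (26.1%), against 5.77% of all promoters. TTTGAA and CCAAT were both there in 9 (19.6%), against 1.06%. Over the whole window of 300 bases and both strands, TTTGAA was in 35 of the 46 member promoters (76.1%), against 17.9% of all 32851 promoters and 16.0% of those of protein-coding genes. CCAAT was in 36 (78.3%), against 37.4% of all promoters. Both were in 31 (67.4%), against 6.95%. A match of either may share a single end letter with the other. The letters TTCNNNGAA, the consensus of STAT factors, which can overlap TTTGAA, were in 1 member promoter (2.17%, that of Ncaph), against 8.3% of all. Of the promoters of members called lower in the controls, 17 of 20 held TTTGAA (85.0%), as did 18 of 25 of members not called (72.0%); the difference was not tested. A match describes letters, not a bound site, and an absent match says nothing about a factor.

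In the control cells, mitosis genes were lower on the plus arrays. Of the 51 members, 25 fell and 0 rose at a limma adjusted p under 0.05 (here "called"), which is 49.0% against 22.1% called in either direction among all genes tested (11.6% lower and 10.6% higher). The fitted difference was below 0 for 50 of the 51. Its median was -0.61 on the log2(signal + 32) scale, with form medians of -0.47, -0.82 and -0.61 in A, B and C, while the median of all genes was -0.02. In 24 members (47.1%) every control plus array lay below every control minus array, as in 12.5% of all genes, and 19 of these 24 were called. A lower signal may reflect fewer dividing cells or less RNA per cell, which cannot be told apart in bulk samples.

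**Figure D1:**
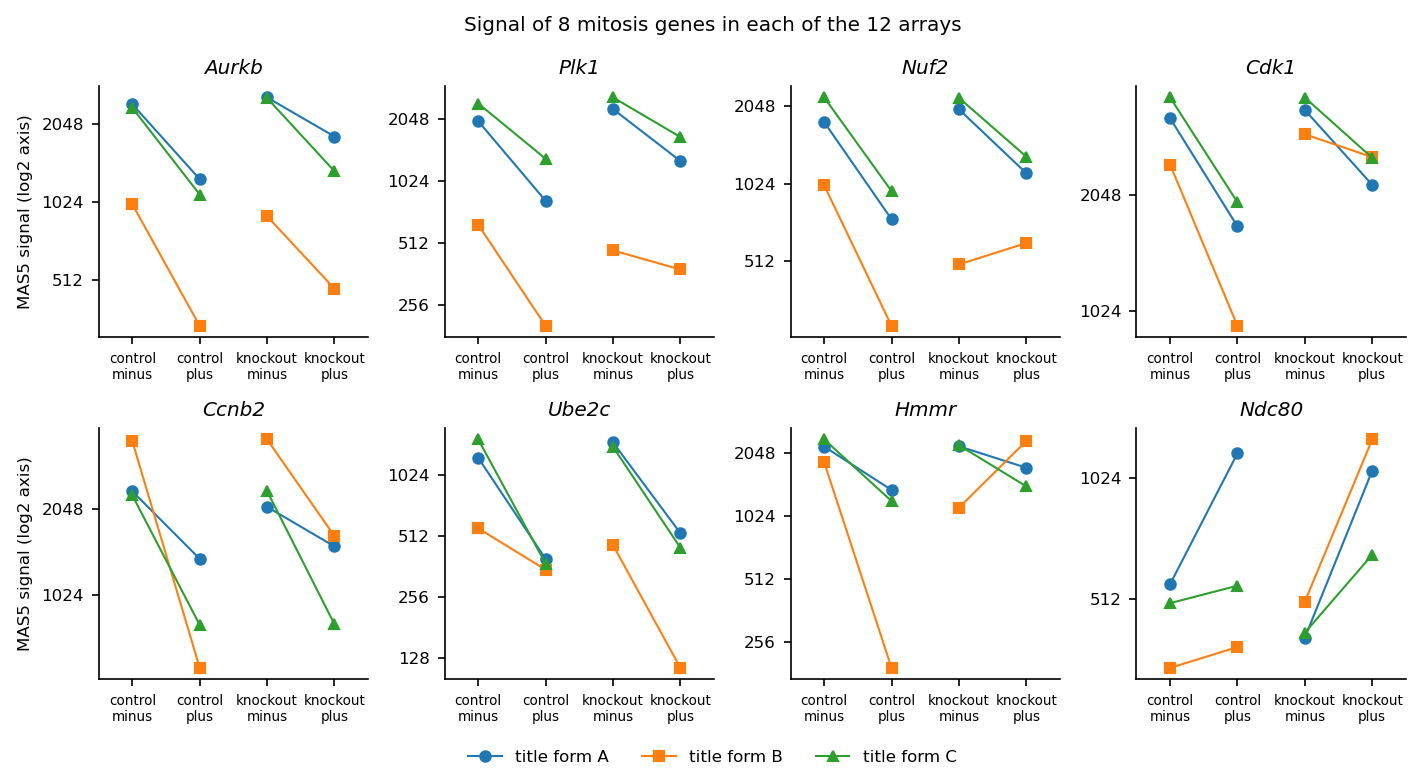
MAS5 signal (log2 axis) of 8 mitosis genes in each of the 12 arrays, by group, with points of 1 title form joined between minus and plus arrays of a genotype. The control plus points lie below their control minus partners in Aurkb, Plk1, Nuf2, Cdk1, Ccnb2, Ube2c and Hmmr, and above them in Ndc80.

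The genes that start mitosis were the role group with the largest share of calls, 6 of 7 lower. Cdk1, the kinase of mitotic entry, gave signals of 3241, 2455 and 3672 in the control minus arrays of forms A, B and C, and 1696, 935 and 1959 in the control plus arrays. In the knockouts these were 3405, 2944 and 3668 in the minus and 2176, 2568 and 2558 in the plus arrays. The groups did not overlap in either genotype, and the fitted log2 difference was -1.06 ± 0.21 in the controls (SE; limma adjusted p = 0.00461). In the knockouts it was -0.45 ± 0.21 (adjusted p = 0.151). Its partners among the cyclins also fell in the controls. Ccnb2, a B-type cyclin, had 2362, 3538 and 2284 in the control minus arrays, 1369, 568 and 803 in the control plus arrays, 2082, 3590 and 2364 in the knockout minus arrays and 1514, 1645 and 808 in the knockout plus arrays. No plus array reached the minus arrays of its genotype, and the control plus array of form B was the lowest of all 12. The difference was -1.61 ± 0.33 in the controls (adjusted p = 0.00557), or 0.33 times the minus level, against -1.03 ± 0.33 in the knockouts (adjusted p = 0.0487). Ccna2, cyclin A2 of S phase and early mitosis, had 3357, 2217 and 3455 in the control minus arrays, 1575, 1190 and 2195 in the control plus arrays, 3794, 2011 and 3395 in the knockout minus arrays and 1958, 1708 and 2402 in the knockout plus arrays. In the controls the groups were separate and in the knockouts they overlapped through form B, where the minus signal was low. Ccna2 fell by 0.87 in the controls (adjusted p = 0.00591), and its difference of -0.56 ± 0.18 in the knockouts missed the threshold (adjusted p = 0.0503).

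The phosphatases Cdc25b and Cdc25c, which activate Cdk1, fell in both genotypes. Cdc25c gave 426, 557 and 492 in the control minus arrays, 233, 148 and 153 in the control plus arrays, 461, 712 and 507 in the knockout minus arrays and 289, 421 and 188 in the knockout plus arrays, with no overlap between minus and plus in either genotype. The differences were -1.33 ± 0.27 (adjusted p = 0.00553) and -0.88 ± 0.27 (adjusted p = 0.0435). Cdc25b gave 1040, 489 and 1021 in the control minus arrays, 735, 244 and 390 in the control plus arrays, 985, 322 and 973 in the knockout minus arrays and 610, 214 and 459 in the knockout plus arrays. The form B signals were lower throughout, so the groups overlapped, although plus was below minus in each of the 3 forms. Its differences were -0.91 ± 0.23 (adjusted p = 0.0156) and -0.74 ± 0.23 (adjusted p = 0.0425). Cks2, a small subunit that binds Cdk1, was at 10221, 23973 and 10047 in the control minus arrays, 8367, 10920 and 7400 in the control plus arrays, 10628, 23711 and 11315 in the knockout minus arrays and 9521, 18938 and 9290 in the knockout plus arrays. Form B was the highest in each group, and the groups overlapped. Cks2 fell in the controls (-0.62 ± 0.16, adjusted p = 0.0175) and stood at -0.26 ± 0.16 in the knockouts (adjusted p = 0.288). Foxm1, a transcription factor that activates late cell cycle genes, was not called in the controls (-0.18 ± 0.30, limma adjusted p = 0.707). Its form differences there were -0.43, 0.06 and -0.17. The other Foxm1 probe sets above the level filter, both dimmer, were at -0.78 and -0.86 in the controls and were not tested.

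Among the mitotic kinases 2 of 5 fell in the controls. Aurkb, the kinase of the chromosomal passenger complex, had 2449, 1008 and 2372 in the control minus arrays, 1259, 342 and 1098 in the control plus arrays, 2603, 906 and 2589 in the knockout minus arrays and 1839, 476 and 1351 in the knockout plus arrays. Plus lay below minus in every form of both genotypes, and the lower level of form B made the groups overlap. Aurkb fell by 1.17 in the controls (SE 0.18, adjusted p = 0.00144). In the knockouts it fell by 0.77 (SE 0.18, adjusted p = 0.0152). Plk1, a kinase of mitotic entry and spindle assembly, had 1992, 626 and 2429 in the control minus arrays, 819, 202 and 1310 in the control plus arrays, 2282, 471 and 2600 in the knockout minus arrays and 1278, 380 and 1671 in the knockout plus arrays. Again each plus array was below its minus partner, with form B the lowest in every group. The difference was -1.21 ± 0.20 in the controls (adjusted p = 0.00175) against -0.58 ± 0.20 in the knockouts, where it was not called (adjusted p = 0.0589). Aurka, the spindle pole kinase (-0.41 ± 0.17), Bub1 (-0.62 ± 0.23) and Ttk (-0.87 ± 0.31), both of the checkpoint, were not called in the controls.

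Of the 3 partners of Aurkb in the passenger complex, Cdca8 (borealin) was called in the controls. Its signals were 10604, 21729 and 10208 in the control minus arrays, 8159, 10051 and 8042 in the control plus arrays, 10214, 20447 and 10804 in the knockout minus arrays and 9282, 17695 and 8505 in the knockout plus arrays. The groups were separate in the controls and overlapped in the knockouts, and form B was the highest of the 3 forms in every group. The differences were -0.61 ± 0.16 (adjusted p = 0.02) and -0.23 ± 0.16 (adjusted p = 0.346). Incenp, its scaffold, was at -0.39 ± 0.14 and Birc5 (survivin) at -0.22 ± 0.21 in the controls, with adjusted p of 0.0617 and 0.487. The probe sets used for Cdca8 and Incenp are of the s_at and x_at kinds.

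In the group of the spindle checkpoint and anaphase, 6 of 9 fell in the controls. Ube2c, the ubiquitin-conjugating enzyme of the anaphase-promoting complex, had 1237, 556 and 1526 in the control minus arrays, 393, 348 and 372 in the control plus arrays, 1474, 460 and 1403 in the knockout minus arrays and 526, 114 and 446 in the knockout plus arrays. The control plus arrays lay in a narrow range below all control minus arrays, and the knockout plus array of form B was the lowest of the 12, with the knockout groups overlapping. Ube2c fell to 0.38 times the minus level in the controls (-1.39 ± 0.32, adjusted p = 0.00963) and to 0.33 times in the knockouts (-1.59 ± 0.32, adjusted p = 0.00619). Of the 7 members called in the knockouts, it was the 1 that kept its call without each of the 12 arrays in turn. In a fit with the beta-actin 3' to 5' ratio as covariate, however, Ube2c was called in neither genotype. Its difference there was -0.95 in the controls (limma adjusted p = 0.17) and -1.12 in the knockouts (limma adjusted p = 0.173). Cdc20, the activator of the same complex, was at 7474, 10619 and 8052 in the control minus arrays, 5486, 3707 and 5077 in the control plus arrays, 7857, 11679 and 8912 in the knockout minus arrays and 6364, 11132 and 6064 in the knockout plus arrays. Minus and plus were separate in the controls and close in form B of the knockouts. The differences were -0.87 ± 0.23 (adjusted p = 0.0195) and -0.31 ± 0.23 (adjusted p = 0.376).

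Bub1b, the checkpoint protein BubR1, had 4079, 2220 and 3774 in the control minus arrays, 2218, 514 and 2066 in the control plus arrays, 3983, 3327 and 4330 in the knockout minus arrays and 2939, 2044 and 2310 in the knockout plus arrays. The control plus array of form B stood far below the others, and minus and plus did not overlap in either genotype. Its differences were -1.26 ± 0.31 (adjusted p = 0.0131) and -0.68 ± 0.31 (adjusted p = 0.142). Espl1, separase, which cuts cohesin at anaphase, gave 1554, 954 and 1152 in the control minus and 851, 513 and 797 in the control plus arrays, which were separate. In the knockouts it gave 1598, 946 and 1051 in the minus and 1010, 903 and 845 in the plus arrays, which overlapped. The control difference was -0.74 ± 0.20 (adjusted p = 0.0212) and that in the knockouts -0.34 ± 0.20 (adjusted p = 0.256). Cdca5 (sororin, which protects cohesin) and Cdca3 also fell in the controls, by 0.61 and 0.86 (adjusted p = 0.04 and 0.0421). Bub3, the checkpoint protein with the highest mean signal of this group, was at 8954, 12221 and 8712 in the control minus arrays, 7323, 8554 and 8224 in the control plus arrays, 8508, 13266 and 9073 in the knockout minus arrays and 8232, 13674 and 8299 in the knockout plus arrays. Its control groups did not overlap, yet the difference of -0.29 ± 0.14 was not called (adjusted p = 0.162). Mad2l1, the checkpoint protein Mad2 (-0.56 ± 0.24), and Pttg1, the separase inhibitor securin (-0.07 ± 0.13), were not called either.

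Among the kinetochore and centromere genes 3 of 7 fell in the controls. Nuf2, a subunit of the NDC80 complex that holds microtubules, had 1780, 1009 and 2220 in the control minus arrays, 744, 286 and 958 in the control plus arrays, 1996, 496 and 2212 in the knockout minus arrays and 1125, 601 and 1306 in the knockout plus arrays. The control groups were separate, and the knockout groups overlapped because the knockout minus array of form B was the lowest of the knockouts. Nuf2 fell by 1.37 in the controls (SE 0.24, adjusted p = 0.00236), and stood at -0.43 ± 0.24 in the knockouts (adjusted p = 0.224). Spc24, another subunit, gave 1292, 1215 and 1315 in the control minus arrays, 685, 520 and 832 in the control plus arrays, 1568, 1493 and 1468 in the knockout minus arrays and 873, 1070 and 773 in the knockout plus arrays. No plus array reached a minus array of its genotype, and it fell in both, by 0.90 (adjusted p = 0.0113) and 0.73 (adjusted p = 0.0338).

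Ndc80, the subunit that names this complex, went the other way, and is given in full after its values were seen. Its signals were 558, 345 and 500 in the control minus arrays, 1180, 389 and 553 in the control plus arrays, 410, 504 and 422 in the knockout minus arrays and 1068, 1278 and 660 in the knockout plus arrays. In all 6 pairs of arrays plus was above minus, and the groups overlapped in the controls and not in the knockouts. Ndc80 rose by 1.07 ± 0.34 in the knockouts (adjusted p = 0.0457), the 1 member called higher in any comparison, and was at 0.44 ± 0.34 in the controls (adjusted p = 0.371). In a fit with the beta-actin 3' to 5' ratio as covariate, its knockout difference was 0.07 (adjusted p = 0.928), and its call held in 8 of 28 alternative settings. A single probe set represents it.

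Cenpf, a kinetochore protein of late cell cycle, fell by 0.95 in the controls (adjusted p = 0.0306). Cenpa, the centromere histone and the member of this group with the highest mean signal, was at 3056, 2217 and 2600 in the control minus arrays, 2134, 1349 and 1906 in the control plus arrays, 3224, 2168 and 2846 in the knockout minus arrays and 2721, 3841 and 2317 in the knockout plus arrays. It was separate between control minus and plus, with a difference of -0.55 ± 0.23 that was not called (adjusted p = 0.11), and its highest signal was in the knockout plus array of form B. Cenpe, a kinetochore motor, was at -0.29 ± 0.27 and Spc25, the partner of Spc24, at -0.21 ± 0.25 in the controls, both not called.

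Among the genes of the spindle and its motors, 5 of 10 fell in the controls. Tpx2, which activates Aurora A on the spindle, had 1475, 1060 and 1567 in the control minus arrays, 803, 501 and 923 in the control plus arrays, 1474, 707 and 1594 in the knockout minus arrays and 1074, 712 and 1087 in the knockout plus arrays. The control groups were separate, with -0.88 ± 0.19 (adjusted p = 0.0071), and the knockout groups overlapped, with -0.32 ± 0.19 (adjusted p = 0.249). Kif2c, a motor that shortens microtubules, had 2815, 2492 and 3024 in the control minus arrays, 1377, 1143 and 1945 in the control plus arrays, 3111, 2441 and 3244 in the knockout minus arrays and 2203, 2720 and 1989 in the knockout plus arrays. It too was separate in the controls and overlapped in the knockouts, where the plus array of form B was above its minus partner. The differences were -0.92 ± 0.21 (adjusted p = 0.00996) and -0.34 ± 0.21 (adjusted p = 0.275). Prc1, which bundles the central spindle, gave 3563, 1626 and 4010 in the control minus arrays, 2391, 653 and 2608 in the control plus arrays, 3420, 1372 and 4009 in the knockout minus arrays and 2946, 1672 and 3310 in the knockout plus arrays. Form B was the lowest in every group, so that the groups overlapped. Prc1 fell in the controls (-0.82 ± 0.20, adjusted p = 0.0142) and was at -0.07 ± 0.20 in the knockouts (adjusted p = 0.841).

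Kif20a, a motor of cytokinesis, had 718, 322 and 870 in the control minus arrays, 464, 81.1 and 364 in the control plus arrays, 814, 387 and 966 in the knockout minus arrays and 574, 378 and 527 in the knockout plus arrays. Its control plus array of form B was the lowest of the 12, near the level filter of 76.4, and the control groups overlapped. The differences were -1.14 ± 0.29 (adjusted p = 0.015) and -0.45 ± 0.29 (adjusted p = 0.294). Hmmr, a spindle-associated hyaluronan receptor, had 2189, 1842 and 2369 in the control minus arrays, 1359, 192 and 1202 in the control plus arrays, 2197, 1118 and 2223 in the knockout minus arrays and 1735, 2329 and 1414 in the knockout plus arrays. It too is given in full after its values were seen. The control plus array of form B stood far below the other 11. The control groups did not overlap, and the form differences were -0.67, -3.07 and -0.96. Hmmr fell by 1.57 (SE 0.47, adjusted p = 0.0346), a call that 7 of the 12 fits without 1 array kept. Kif22, a chromosome-arm motor with the highest mean signal of this group, was at 3256, 9763 and 2633 in the control minus arrays, 3639, 9363 and 1812 in the control plus arrays, 4532, 7782 and 3242 in the knockout minus arrays and 2528, 11088 and 1706 in the knockout plus arrays. Form B was far above the others in every group, and the difference was -0.14 ± 0.25 in the controls (adjusted p = 0.717). The probe set used for Kif22 is of the x_at kind. Its other probe sets above the level filter, both dimmer, were at -0.74 and -0.42 in the controls and were not tested. The remaining 4 were Kif11, which separates the spindle poles, Kif4, a chromosome-bound motor, Kif23, a motor of the central spindle, and Nusap1, which bundles microtubules. They lay between -0.52 and -0.19 in the controls and were not called.

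Of the 7 genes of chromosome condensation, Ncapd2 and Top2a fell in the controls. Ncapd2, a condensin subunit, had 4436, 3732 and 4283 in the control minus arrays, 3217, 2159 and 2405 in the control plus arrays, 4437, 2764 and 3766 in the knockout minus arrays and 3355, 2416 and 2499 in the knockout plus arrays. The control groups were separate with -0.69 ± 0.16 (adjusted p = 0.00922), and the knockout groups overlapped with -0.39 ± 0.16 (adjusted p = 0.0995). Top2a, the topoisomerase that untangles sister chromatids, fell by 0.66 (adjusted p = 0.036). Mki67, the proliferation antigen Ki-67 that coats mitotic chromosomes and the member of this group with the highest mean signal, was at 11140, 13221 and 10300 in the control minus arrays, 9381, 8574 and 9890 in the control plus arrays, 9977, 10988 and 10139 in the knockout minus arrays and 9044, 16462 and 9634 in the knockout plus arrays. Its control groups did not overlap, but the difference of -0.31 ± 0.18 was not called (adjusted p = 0.241), and its highest signal was in the knockout plus array of form B. The condensin genes Ncapg, Ncaph, Smc2 and Smc4 lay between -0.57 and -0.03, with none called. Dimmer probe sets above the level filter, not tested, were at -1.34 for Ncapg, and at 0.15 and 0.09 for Smc4, in the controls.

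None of the 3 cytokinesis genes was called in the controls by limma (Racgap1 had an unadjusted p of 0.0348). Ect2, the exchange factor that places the cleavage furrow, gave 1664, 1117 and 2120 in the control minus arrays, 1112, 924 and 1755 in the control plus arrays, 2421, 1036 and 2571 in the knockout minus arrays and 1954, 3450 and 1888 in the knockout plus arrays. The knockout plus array of form B was the highest, and minus and plus overlapped in both genotypes. Differences in the controls were -0.37 ± 0.35 for Ect2, -0.42 ± 0.25 for Anln, a scaffold of the contractile ring, and -0.58 ± 0.24 for Racgap1, the partner of Ect2.

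**Figure D2:**
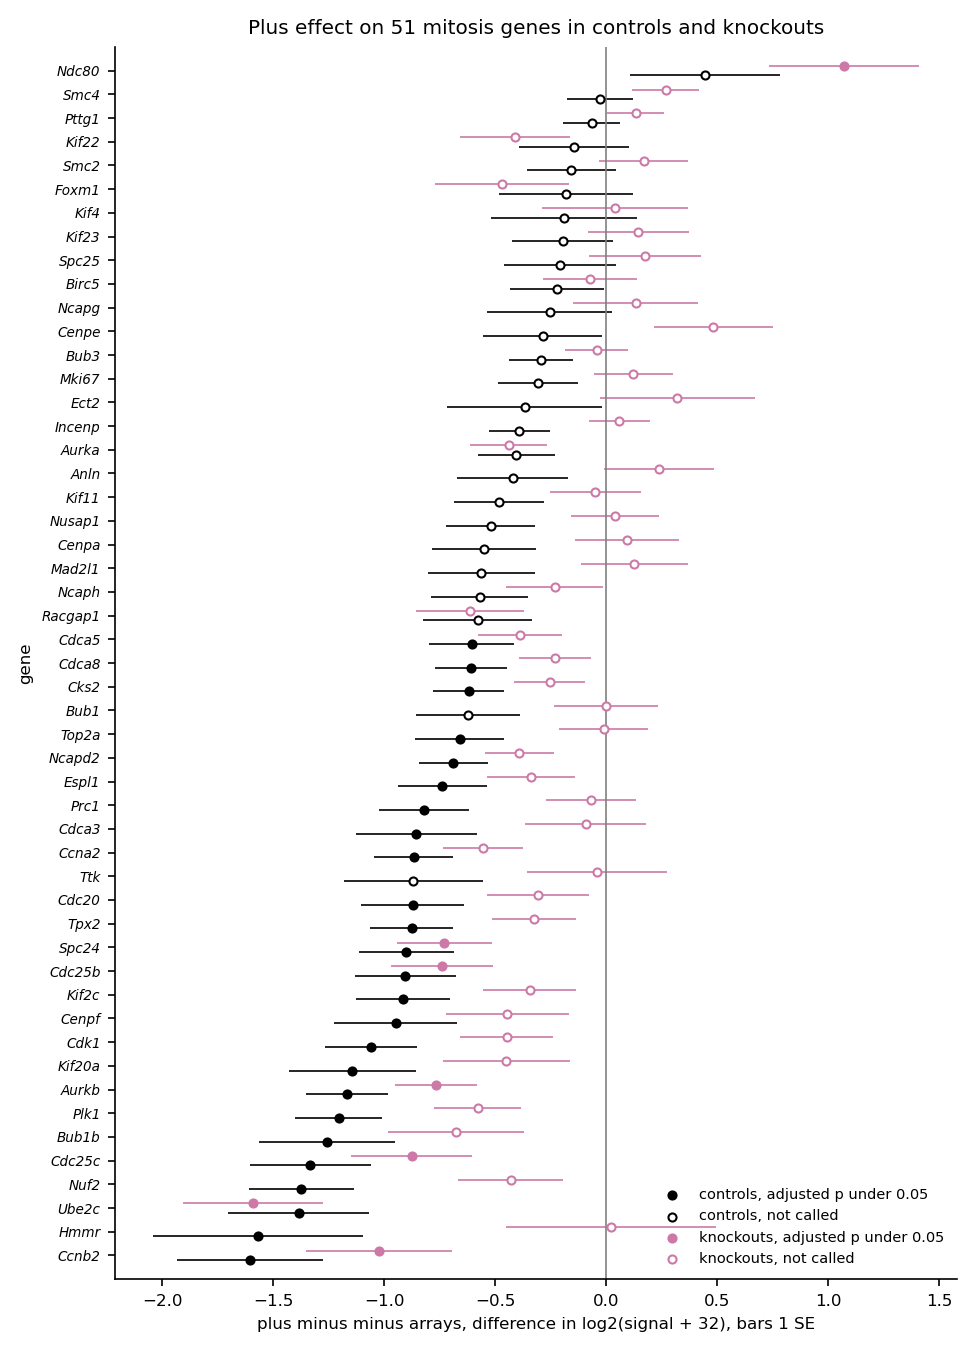
Fitted plus minus minus difference in log2(signal + 32) of 51 mitosis genes (bars 1 SE, 3 arrays a group), in controls (black) and knockouts (pink), filled where the adjusted p is under 0.05. The 25 filled control points are all below 0, and in the knockouts 6 filled points are below 0 and 1, Ndc80, is above.

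How many members passed depended on the arrays and the block. Without form B 31 were called in the controls (60.8%, against 29.0% of all genes in that fit), without form A 9 (17.6% against 9.97%) and without form C 2 (3.92% against 5.40%). With single arrays left out the count ran from 11 to 33, with the lowest counts without the control minus array of form B (12), the control plus array of form B (14) and the control minus array of form C (11). In these 3 fits 12.2%, 14.1% and 12.2% of all genes were called, so that calls over the whole array were fewer too. The count of 33 came without the knockout plus array of form B, where 32.6% of all genes were called. The call survived each such omission in 9 of the 25: Aurkb, Ccna2, Ccnb2, Cdc25c, Cdk1, Kif2c, Nuf2, Plk1 and Tpx2. Without title form as a block, which leaves the spread between forms in the error, 2 were called, Ccnb2 and Cdc25c (3.92%, against 4.44% of all genes).

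In each of the 6 pairs of one form and genotype the beta-actin 3' to 5' ratio was higher on the plus array. In forms A, B and C it was 0.79, 4.30 and 0.30 in the control minus and 2.14, 5.06 and 0.89 in the control plus arrays, and 0.34, 4.73 and 0.25 against 1.97, 5.78 and 0.50 in the knockouts. A fit with this ratio as a covariate called 20 members in the controls (39.2%, against 14.4% of all genes). Of these, 17 belong to the 25 above, and the members' median was -0.82. Ccna2 and Tpx2, which kept their calls without each single array, were not called in this fit (limma adjusted p = 0.0899 and 0.0693). Of the marker lists that follow, the mast cell and basophil list and the erythroid list did not overlap between control minus and plus arrays. The ranges of the other lists given here overlapped. In the controls the 5 mast cell and basophil markers had a mean log2 level of 9.29 to 10.24 (minus) and 8.37 to 9.18 (plus). The 6 erythroid markers on the array were at 8.19 to 8.48 and 7.45 to 7.85. Of these, Hba-a1, Alas2 and Slc4a1 were below the level filter. The 6 progenitor markers were at 11.95 to 12.55 and 11.46 to 12.09, and the 5 blood cell markers at 11.79 to 12.41 and 12.33 to 12.95. Megakaryocyte markers (4 on the array) were at 11.27 to 12.13 and 10.76 to 11.44, and the 8 neutrophil markers at 11.25 to 14.01 and 10.66 to 13.81. The 7 monocyte and macrophage markers on the array, 6 of them above the filter, were at 8.85 to 9.96 and 9.17 to 10.00. The part of cell makeup in the members' difference was not tested.

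Genes outside the 52 give the setting. Of 97 other mitosis genes 9 fell and 3 rose in the controls (12.4%, median -0.32). Of 52 genes of S phase 22 fell and 0 rose (42.3%, median -0.66). Among all genes tested 22.1% were called, 11.6% lower and 10.6% higher, with a median of -0.02. The share of the other mitosis genes was thus below that of all genes. Among the other mitosis genes those with the smallest p were Cenpt, of the inner kinetochore (1.62 ± 0.27, adjusted p = 0.00204), Ckap2, a spindle protein (-1.17 ± 0.25), Cdca2, a phosphatase subunit on chromosomes (-0.89 ± 0.22), and Ndel1, a dynein regulator (0.67 ± 0.17), so that 2 rose and 2 fell. In S phase they were Ung, which removes uracil from DNA (-2.92 ± 0.34, adjusted p = 0.000297), Tk1, thymidine kinase (-1.90 ± 0.23), Pold2, a DNA polymerase subunit (-2.03 ± 0.28), and Dut, which degrades dUTP (-1.51 ± 0.22), and all 4 fell. TTTGAA was in 17.0% of the S phase promoters and 35.4% of those of the other mitosis genes.

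**Figure D3:**
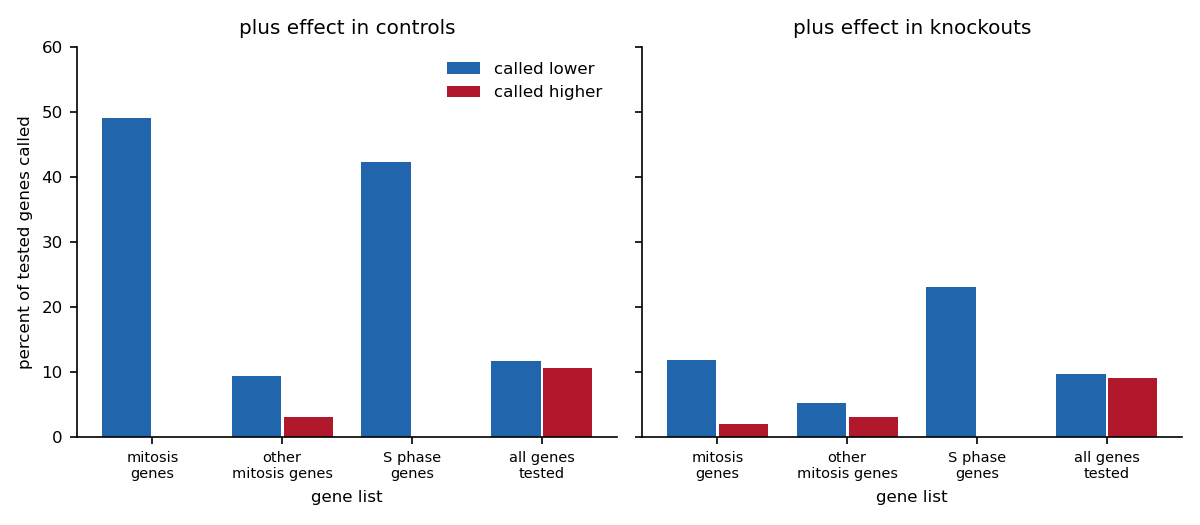
Percent of genes called lower and higher on plus arrays in controls and knockouts, for the mitosis genes, other mitosis genes, S phase genes and all genes tested. In the controls the mitosis genes stand at 49.0% lower and 0% higher, and the S phase genes at 42.3% lower.

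In the knockouts fewer mitosis genes passed the test. Of the 51, 6 fell (Ube2c, Aurkb, Spc24, Cdc25b, Cdc25c and Ccnb2) and 1 rose (Ndc80), which is 13.7% against 18.8% of all genes in either direction (9.72% lower and 9.03% higher), a share near the background. The 6 that fell were all among the 25 called lower in the controls, from other arrays of the same title forms in the same fit. Without overlap between groups were 7 members on the lower side (13.7%), as in 11.4% of all genes. The median difference was -0.23, with all genes at -0.06. Form medians were -0.31 in A, 0.24 in B and -0.46 in C, and plus was below minus in 43 of 51 members in form A, 20 in form B and 47 in form C.

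Form B therefore parted from the others in the knockouts. Without it 20 members were called, 19 lower and 1 higher (39.2%, against 25% of all genes in that fit), with a median of -0.42. Without form A or C the counts were 1 and 0 (1.96% and 0%, against 6.42% and 3.36% of all genes). With single arrays left out the count stayed within 1.5 times for the control plus arrays of forms A and B and the knockout plus array of form B (7, 10 and 8), and lay at 1 to 4 without each of the other 9, where 8.85% to 17.4% of all genes were called. With array weights 26 members were called in the knockouts and 33 in the controls (51% and 64.7%), against 37.9% and 39.2% of all genes. With the beta-actin covariate 3 were called in the knockouts (5.88%, against 6.14% of all genes). Without title form as a block 0 were called by limma, against 2.82% of all genes (13 members were under an unadjusted p of 0.05 with the block). With all 12 arrays, the block and no covariate or weights, other mitosis genes had 5 lower and 3 higher of 97 (8.25%). S phase genes had 12 lower of 52 (23.1%), and 18.8% of all genes were called. Of the marker lists, the 6 erythroid markers on the array (3 above the filter) were at 7.81 to 8.52 in the knockout minus arrays. In the knockout plus arrays they were at 6.89 to 7.47, with no overlap. Megakaryocyte markers were at 10.75 to 11.71 and 9.44 to 11.11, mast cell and basophil markers at 9.58 to 9.69 and 7.75 to 9.78, progenitor markers at 11.95 to 12.52 and 10.68 to 12.23, and neutrophil markers at 11.55 to 13.70 and 10.95 to 12.13. Monocyte and macrophage markers were at 9.59 to 9.94 and 9.81 to 9.98, and blood cell markers at 11.96 to 12.26 and 12.24 to 12.43. Their part was not tested.

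**Figure D4:**
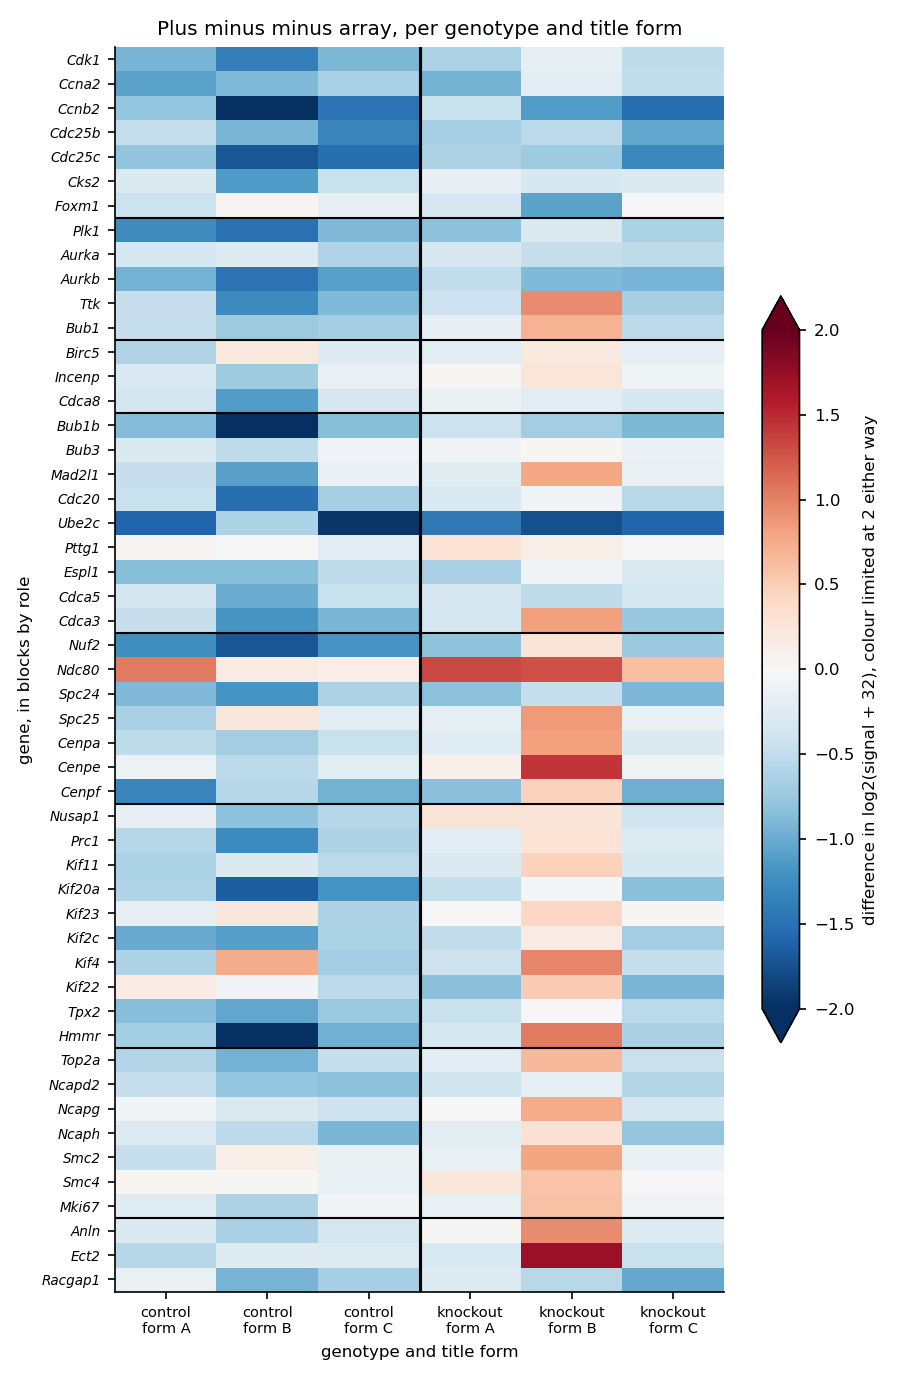
Difference in log2(signal + 32), plus minus minus array, of 51 mitosis genes (rows, in blocks by role) for each genotype and title form, in blue below 0 and red above, with colour limited at 2 either way. The columns of forms A and C are mostly blue in both genotypes, and that of knockout form B is above 0 in 31 of 51 members.

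Between genotypes on the minus arrays, no difference in mitosis genes was detected with 3 arrays a group. Of the 51 members 0 were called, and 0 had an unadjusted p under 0.05, against 2 genes called of 10583 (0.0189%) and 250 (2.36%) at an unadjusted p under 0.05. The median was -0.03, with 0.05, -0.09 and 0.04 in forms A, B and C and -0.01 over all genes. Differences ran from -0.29 (Cenpe) to 0.27 (Kif23). The smallest p was that of Ncapd2 (-0.20 ± 0.16, unadjusted p = 0.214, limma adjusted p = 1). Cdk1 was at 0.11 ± 0.21, Aurkb at 0.02 ± 0.18 and Mki67 at -0.15 ± 0.18. In the other lists no gene was called either; the smallest p among the other mitosis genes were those of Cenpu (-0.34), Anapc10 (0.44), Anapc4 (-0.33) and Cdc27 (0.31), and among S phase genes those of Mcm10 (-0.22), Lig1 (-0.21), Rrm1 (0.20) and Dnmt1 (-0.15), each at a limma adjusted p of 1.

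On the plus arrays the fitted difference, knockout less control, was above 0 for 47 of 51 members, with 0 called, against 0.0189% of all genes. The smallest limma adjusted p was 0.507. At an unadjusted p under 0.05 were 25 members (49.0%), against 1038 of all genes (9.81%). The median was 0.44, with 0.27, 0.94 and 0.16 in forms A, B and C, and -0.04 over all genes; without form B it was 0.22. This comparison shares the control plus arrays with the plus effect in controls, so a low value on these arrays enters both. Cdk1 had the smallest p: the control plus arrays at 1696, 935 and 1959 lay below the knockout plus arrays at 2176, 2568 and 2558, with 0.72 ± 0.21 (unadjusted p = 0.00482). Hmmr was at 1.32 ± 0.47, with 0.34, 3.40 and 0.23 in the forms, Prc1 at 0.65 ± 0.20, Kif20a at 0.88 ± 0.29 and Kif2c at 0.64 ± 0.21. On the lower side were Foxm1 (-0.44 ± 0.30), Ube2c (-0.25 ± 0.32), Kif22 (-0.12 ± 0.25) and Cdc25b (-0.07 ± 0.23). The other Foxm1 probe sets above the level filter were at 0.16 and 0.46.

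**Figure D5:**
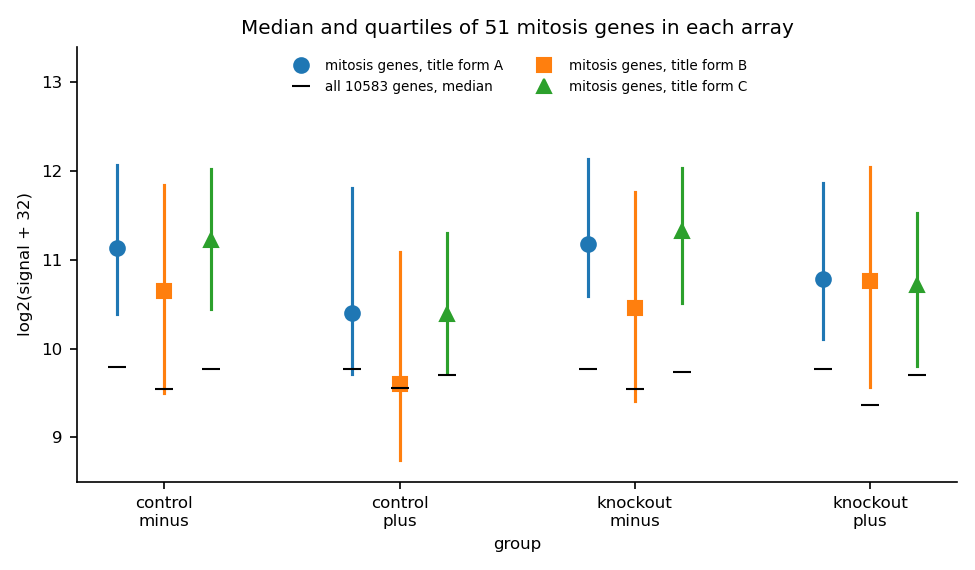
Median (points) and quartiles (lines) of log2(signal + 32) over the 51 mitosis genes in each array, by group and title form, with the median of all 10583 genes as a black dash. The lowest member median is that of the control plus array of form B (9.60), and in form B alone the knockout plus median (10.77) lies above its minus partner (10.46).

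The interaction asks whether the plus effect differs between the genotypes. By limma 0 members were called, as were 0% of all genes, and the smallest adjusted p of a member was 0.954. At an unadjusted p under 0.05 were 6 members (11.8%), against 223 of all genes (2.11%). The median was 0.43, with 0.23, 0.99 and 0.15 in forms A, B and C, and 0.19 without form B, against -0.02 over all genes. The 6 were Nuf2 (0.94 ± 0.34), Prc1 (0.75 ± 0.29), Hmmr (1.59 ± 0.67), Incenp (0.45 ± 0.20), Top2a (0.65 ± 0.28) and Plk1 (0.63 ± 0.28). For Incenp the other probe sets above the level filter gave -0.40 and -0.19, the opposite sign. Those of Hmmr, Prc1 and Top2a were above 0. In forms A, B and C the values were 0.41, 1.97 and 0.44 for Nuf2 and 0.34, 4.10 and 0.32 for Hmmr, so that form B gave the largest. The calls in the controls that are missing in the knockouts are therefore not shown to differ between the genotypes.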

How the data were processed

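The deposited values, a table of 45101 probe sets by 12 arrays in 4 groups of 3, are linear intensity signals that the authors computed with MAS5, per the labels. With 2% of the probe sets trimmed from either end, each array had a mean of 500. Arrays carry no read depth; precision is limited by how many there are. Values were taken as log2(signal + 32), and genes were kept if their mean reached 6.76, the median over the probe sets. A fold or ratio computed here is a power of the log2 difference and understates changes of dim genes.

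One limma fit (version 3.58.1, R 4.3.3, eBayes with trend) held the 4 groups and title form as a block, with 6 residual degrees of freedom. Two-sided p-values were adjusted by Benjamini-Hochberg over the 10583 genes kept, with 0.05 as the threshold. The replicate numbers are those of the title forms, a pairing taken from the titles and checked in the data over the 10583 genes kept. Deviations from group means correlated at 0.41 to 0.77 in 18 pairs of arrays of the same form. In 36 others they correlated at -0.64 to 0.28. Over the mitosis genes alone the ranges were 0.28 to 0.90 and -0.85 to 0.64, which overlap. The fit was also run on simulated data with independent noise, of equal spread on every array, and title form effects built in. Such data cannot show how the fit handles the higher 3' to 5' ratios of form B.

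Signals in every array are printed for at most 20 called members with the smallest p and for the member of each role with the highest mean; up to 4 genes with the smallest p are named from each other list. Further members are named by their differences, and Hmmr and Ndc80 in full, chosen after their values were seen. The members, lists and settings were chosen with earlier results of these data known. Alternatives covered scaling, constant, filter, probe sets, block, covariate, weights, variance prior, the array with conflicting labels and left-out arrays.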

Additional observations from a re-analysis of the deposited data

How the results depend on the processing

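In all, 28 alternatives were fitted: 12 without an array, 3 without a title form and 13 others. Of the 25 members called in the controls, 2 were called with no replicate block (3.92%, against 4.44% of all genes). Without a title form or array the count ran from 2, where 5.40% of all genes were called, to 33, where 32.6% were. In those fits the member median ran from -0.72 to -0.50. That median was -0.88 with arrays centred on their medians, which moved the median of all genes to -0.28, and -0.82 with the beta-actin covariate. In the knockouts the 7 calls became 4 with signal + 1 (17.7% of all genes were called), 3 with quantile normalization (19.0%) or the covariate (6.14%), 2 with no filter (8.49%) or with the conflicting array as a control (9.18%), 1 with the 6 arrays alone (6.26%), 0 with no replicate block (2.82%) and 26 with array weights (37.9%). Without an array or title form they ran from 0, where 3.36% of all genes were called, to 20, where 25% were. The genotype median on minus arrays was 0.047 with centred arrays and 0.091 with the conflicting array as a control, and ran from -0.061 to 0.048 without an array or title form. In the genotype comparisons 0 members were called in any of the 28 alternatives, and in the interaction 0 in any of the 27 run, since it needs all 4 groups and the fit on a contrast's groups alone adds none. The causes were not tested. Of 33 members with further probe sets above the filter, all gave the same sign of the plus effect in controls in 23.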
